A study of Mus musculus with 11 samples.

Results

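The genes described here are 10 members of the Notch pathway, namely the ligands *Jag1*, *Jag2* and *Dll1*, the receptors *Notch1*, *Notch2* and *Notch3*, and the target genes *Hes1*, *Hes5*, *Hey1* and *Hey2*. They were given by symbol and matched to Ensembl identifiers, 1 each, among the 38561 genes in the count files, and all 10 passed the filter on low counts that left 17317 genes for testing. Facial tissue was explanted from mouse embryos at embryonic day 10.5 (E10.5) and held the nasal processes along with the upper (maxillary) and lower (mandibular) branchial arches. Its RNA was sequenced to ask how gene expression in the developing face depends on the secreted WNT ligand WNT9b and on RSPO2. The latter is a secreted protein that strengthens WNT signaling. The 11 libraries are 2 from wild-type embryos (wt) and 3 each from embryos homozygous for a mutation of *Rspo2* (Rspo2KO), homozygous for a mutation of *Wnt9b* (Wnt9bKO), or homozygous for both (DKO). The strain of every group is labelled Mixed, and the mutations were present throughout the embryo. The labels do not say which *Rspo2* allele was used or that the libraries of a group came from separate embryos, so that the p-values measure the spread between libraries, which may be technical. Total counts per library ranged from 11136166 to 18017344.

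Notch receptors are membrane proteins that are cut when a ligand on a neighbouring cell binds them, and the freed intracellular part enters the nucleus and activates target genes together with the DNA-binding protein RBPJ. Among the best known targets are the *Hes* and *Hey* genes, which encode repressors that hold back differentiation. In the embryonic head, Notch signaling is known to keep neural progenitors from becoming neurons too early, to shape blood vessels and, through *Jag1*, to take part in patterning the facial skeleton.

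The mutated genes were examined first, as a check of the labels. *Rspo2* was at 14.8 and 16.0 CPM (counts scaled to a library total of 1000000 after TMM scaling) in the wt libraries, while the libraries labelled Rspo2KO had 6.59, 4.80 and 4.74 CPM. It was at 22.8, 2.86 and 18.1 CPM in the libraries labelled Wnt9bKO 1, 2 and 3, and at 4.17, 3.68 and 15.5 CPM in those labelled DKO 1, 2 and 3. The libraries labelled Wnt9bKO 2 and DKO 3 therefore had *Rspo2* levels that go against their labels, and results were also obtained without both. *Wnt9b* was at 10.8 and 13.4 CPM in wt, while the libraries labelled Wnt9bKO had 16.2 to 23.3 CPM and those labelled DKO 18.3 to 20.2 CPM, log2 fold changes of 0.61 (adjusted p = 0.0187) and 0.68 (adjusted p = 0.0138). Counts per gene thus did not show a loss of *Wnt9b* and gave no check of that label.

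In wt, the level per length, in RPKM (CPM per kilobase of exon), had the highest means for *Notch2* (12.3 ± 0.968, SD, n = 2) and *Notch3* (11.4 ± 0.0553). *Hes5* (10.8 ± 2.04), *Hes1* (9.84 ± 0.766) and *Hey1* (9.22 ± 1.48) followed, and from *Notch3* to *Hey1* each gene overlapped its neighbour in this order between the wt libraries, and *Hes5* (12.2 RPKM in wt 1 and 9.31 in wt 2) also overlapped *Notch2*. *Jag1* (6.72 ± 0.0792 RPKM), *Notch1* (5.59 ± 0.565), *Dll1* (4.55 ± 0.0695), *Jag2* (2.93 ± 0.375) and *Hey2* (1.96 ± 0.114) were lower, each without overlap with the next in the 2 wt libraries. The lowest count of any of the 10 genes in a library was 77 (*Hey2* in the library labelled Wnt9bKO 2, 95% Poisson interval 60.8 to 96.2), so that every one was measured above the floor of 3 counts. Such intervals cover counting error only.

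**Figure D1:**
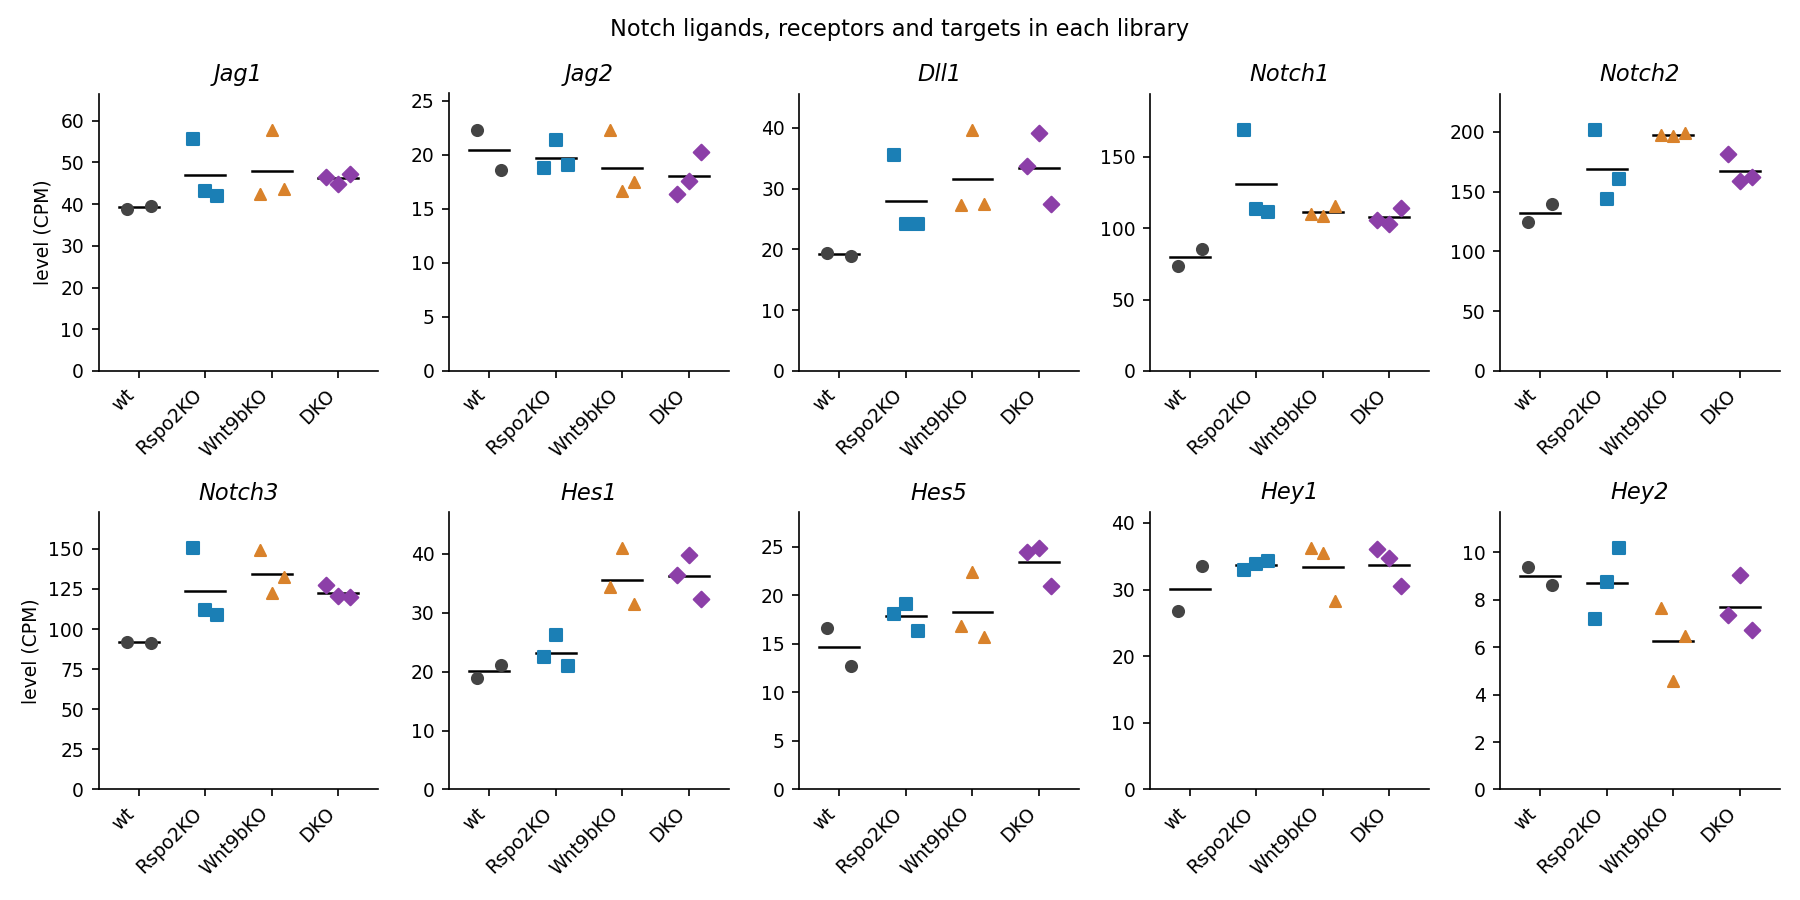
Level of each gene in CPM (vertical axes, from 0) in every library, grouped by genotype label on the horizontal axes, where points are libraries and lines are group means. *Hes1* lay at 31.4 CPM or above in each library labelled Wnt9bKO or DKO and at 26.2 CPM or below in the others, while *Hey1* and *Jag2* overlapped wt under each mutant label.

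Against wt, the libraries labelled Wnt9bKO had higher levels of a ligand, each of the 3 receptors and a target, and those labelled DKO of the same ligand, a receptor and a pair of targets, but with correction for GC content and length *Notch1* and *Notch2* were no longer called under Wnt9bKO, nor *Notch3* under DKO. A gene was called when its p from edgeR's two-sided quasi-likelihood test, adjusted by the Benjamini-Hochberg method over all genes tested, was below 0.05. Under Wnt9bKO 5 of the 10 genes were called (*Dll1*, *Notch1*, *Notch2*, *Notch3* and *Hes1*), where 32.8% of all genes tested were called, and of the 10 genes 5 were called higher and 0 lower, against 16.8% and 16.0% of all genes. Under DKO 4 were called (*Dll1*, *Notch3*, *Hes1* and *Hes5*), against 27.5% of all genes, and all 4 were higher and 0 lower, against 14.3% and 13.1% of all genes. The median log2 fold change of the 10 genes was 0.41 under Wnt9bKO and 0.38 under DKO, beside 0.01 and 0.02 over all genes tested, and with correction for GC content and length it was 0.24 and 0.16 beside -0.05 and -0.06. Under Rspo2KO 0 of 10 were called in edgeR, against 0.0346% of all genes, with 4 at an unadjusted p below 0.05 (*Dll1*, *Notch1*, *Notch2* and *Notch3*, against 11.9% of all genes) and 1 called by DESeq2 (*Notch1*, against 1.05%), and the median was 0.27 beside 0.00. All libraries of the label lay above both wt libraries for 6 of 10 genes under Wnt9bKO, 5 under Rspo2KO and 7 under DKO, against 28.3%, 17.2% and 29.5% of all genes. In bulk RNA more cells of a type and more RNA per cell cannot be told apart. These comparisons share the 2 wt libraries, and their calls are not independent of each other. Fewer of the 10 genes were called under Wnt9bKO and under DKO when wt 1 or wt 2 was left out, which leaves 1 library in that group.

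Of the ligands, *Dll1* (ENSMUSG00000014773, chromosome 17, 15367354 to 15376872 on the minus strand of GRCm38), which encodes a ligand known for its part in neurogenesis and somite formation, was at 19.38 and 18.97 CPM in wt. The libraries labelled Rspo2KO 1, 2 and 3 had 35.5, 24.2 and 24.1 CPM, with 27.4, 39.7 and 27.5 CPM in those labelled Wnt9bKO, and 33.8, 39.2 and 27.4 CPM in those labelled DKO. All 9 mutant libraries lay above both wt libraries, and Rspo2KO 1, Wnt9bKO 2 and DKO 2 were the highest of their groups. The log2 fold change of *Dll1* was 0.72 under Wnt9bKO (standard error 0.21, adjusted p = 0.0177) and 0.80 under DKO (standard error 0.21, adjusted p = 0.0117). Under Rspo2KO it was 0.54 (standard error 0.21, adjusted p = 0.327), and this value passed only when genes with low counts were kept (adjusted p = 0.0405, range over the alternatives 0.0405 to 0.978). The Wnt9bKO call was lost without the library labelled wt 1 (log2 fold change 0.727), wt 2 (0.697) or Wnt9bKO 2 (0.544, adjusted p = 0.0567). The DKO call was lost without wt 1 (0.81) or wt 2 (0.785). Over the alternatives the log2 fold change ranged from 0.513 to 0.832 under Wnt9bKO and from 0.675 to 0.923 under DKO.

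*Jag1* (ENSMUSG00000027276, chromosome 2), of these 3 ligands the one with the highest level per length in wt, was at 38.9 and 39.5 CPM in wt and between 42.0 and 57.8 CPM in the mutant libraries. Every mutant library thus exceeded both wt libraries, but the log2 fold changes of 0.26 under Rspo2KO, 0.29 under Wnt9bKO and 0.24 under DKO did not pass (adjusted p = 0.522, 0.150 and 0.261). *Jag2* (ENSMUSG00000002799, chromosome 12), a second ligand of the Jagged type, ranged from 16.3 to 22.3 CPM over all 11 libraries, and its groups overlapped. Its log2 fold changes were -0.04, -0.11 and -0.17 in the same order, and none passed (adjusted p = 0.946, 0.616 and 0.444).

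Of the receptors, *Notch1* (ENSMUSG00000026923, chromosome 2, 26457903 to 26516663 on the minus strand) was at 73.9 and 85.2 CPM in wt. The libraries labelled Rspo2KO had 169.1, 113.5 and 111.4 CPM, with 109.8, 108.3 and 115.7 CPM in those labelled Wnt9bKO and 105.8, 103.2 and 113.9 CPM in those labelled DKO. No mutant library overlapped wt, and Rspo2KO 1 stood above every other library. The log2 fold change was 0.48 under Wnt9bKO (standard error 0.16, adjusted p = 0.0279), 0.43 under DKO (standard error 0.16, adjusted p = 0.0507) and 0.72 under Rspo2KO (standard error 0.16, adjusted p = 0.182). The Wnt9bKO call was lost without the library labelled wt 1 (log2 fold change 0.38), wt 2 (0.587) or Wnt9bKO 3 (0.48, adjusted p = 0.0640). Its adjusted p ranged from 0.00153 to 0.924 over the alternatives. The DKO value passed in 12 of 23 alternatives (adjusted p from 0.00362 to 0.860), among them those without the library labelled Rspo2KO 1 (0.00362), Rspo2KO 2 (0.0406), Rspo2KO 3 (0.0453), Wnt9bKO 1 (0.0456) or Wnt9bKO 2 (0.0495). The Rspo2KO value passed in 2 of 23, with DESeq2 (adjusted p = 0.00645) and with low-count genes kept (7.53e-05), in a range up to 0.978.

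*Notch2* (ENSMUSG00000027878, chromosome 3), a receptor also known for roles in kidney and liver development, was at 125.0 and 139.7 CPM in wt and at 197.1, 196.5 and 198.9 CPM in the libraries labelled Wnt9bKO. In those labelled DKO it was at 181.2, 159.1 and 162.3 CPM, and in those labelled Rspo2KO at 201.9, 144.2 and 160.4 CPM. The Wnt9bKO libraries lay close together and far from wt, and only Rspo2KO 1 exceeded them. *Notch2* rose by a log2 fold change of 0.58 under Wnt9bKO (standard error 0.13, adjusted p = 0.00428), a call lost without the library labelled wt 1 (0.494). Its adjusted p ranged from 0.000231 to 0.0806 over the alternatives. Under DKO it was 0.34 (adjusted p = 0.0672), which passed in 4 of 23 alternatives (range 0.0177 to 0.773), among them those without Rspo2KO 1 (0.0177) or Rspo2KO 2 (0.0379), and under Rspo2KO it was 0.35 (adjusted p = 0.307).

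*Notch3* (ENSMUSG00000038146, chromosome 17), known for its role in the mural cells of vessels, was at 92.1 and 91.5 CPM in wt, while the libraries labelled Rspo2KO had 150.4, 111.7 and 108.5 CPM. It was at 149.2, 122.2 and 132.2 CPM in those labelled Wnt9bKO and at 127.4, 120.8 and 119.9 CPM in those labelled DKO. Again no mutant library overlapped wt. On the log2 scale *Notch3* rose by 0.55 under Wnt9bKO (standard error 0.14, adjusted p = 0.00706). Under DKO it rose by 0.42 (standard error 0.14, adjusted p = 0.0340), and it was 0.43 higher under Rspo2KO without passing (adjusted p = 0.254). The Wnt9bKO call was lost without wt 1 (log2 fold change 0.551) or wt 2 (0.543), and the DKO call without wt 1 (0.416) or wt 2 (0.411). The DKO call was also lost without DKO 1 (adjusted p = 0.0926), DKO 2 (0.0652), DKO 3 (0.0587) or Wnt9bKO 2 and DKO 3 together (0.0519). Its log2 fold change stayed between 0.39 and 0.43 in these refits. Over the alternatives the adjusted p ranged from 0.000457 to 0.0591 under Wnt9bKO and from 0.00417 to 0.179 under DKO.

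The receptor transcripts are long, and long genes as a class differed between these libraries. *Notch1*, *Notch2* and *Notch3* have 14.2, 10.8 and 8.09 kb of exon, where the median of the 14561 protein-coding genes tested was 4.47 kb. The 1456 longest of these genes, of 9.93 kb or more, had a median log2 level relative to the wt mean of 0.28, 0.27 and 0.28 in the libraries labelled Wnt9bKO, 0.29, 0.24 and 0.26 in those labelled DKO, and 0.24, 0.06 and 0.14 in those labelled Rspo2KO. Every Wnt9bKO and DKO library and Rspo2KO 1 were thus high for long genes, and Rspo2KO 1 was also the highest of its group for each receptor. It was the highest of its group for *Dll1* (4.22 kb) and *Jag1* (5.83 kb) too, outside the longest class. The shortest genes, of 1.79 kb or less, were at -0.35, -0.45 and -0.32 under Wnt9bKO and -0.32, -0.29 and -0.20 under DKO. Under Rspo2KO they were at -0.23, 0.03 and -0.02. *Hes5*, at 1.36 kb, is in that class. The cause of these differences was not tested. *Notch3*, at 8.09 kb, lies outside this class of longest genes. The GC content of *Notch1*, *Notch2* and *Notch3* was 56.4%, 54.5% and 59.7%, beside a median of 50.3%. The decile of genes highest in GC content was at 0.11, -0.17 and -0.19 under Wnt9bKO and -0.04, -0.05 and -0.15 under DKO. Under Rspo2KO it was at -0.05, -0.02 and -0.10. The parts of GC content and length were not tested separately. With each library corrected for the GC content and length of genes, the log2 fold changes under Wnt9bKO were 0.04 for *Notch1* (adjusted p = 0.796), 0.26 for *Notch2* (0.0598) and 0.25 for *Notch3* (0.0419, called), and those under DKO were 0.06, 0.06 and 0.17 (adjusted p = 0.734, 0.683 and 0.157). Under Rspo2KO the corrected values were 0.47 for *Notch1*, 0.18 for *Notch2* and 0.28 for *Notch3*, and none was called (adjusted p = 0.223, 0.442 and 0.256). The correction with the replicate number as a block also left *Notch3* not called under Wnt9bKO (0.24, adjusted p = 0.0501). With the correction 3 of the 10 genes were called under Wnt9bKO (*Dll1*, *Notch3* and *Hes1*) and 3 under DKO (*Dll1*, *Hes1* and *Hes5*), against 33.8% and 29.4% of all genes.

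**Figure D2:**
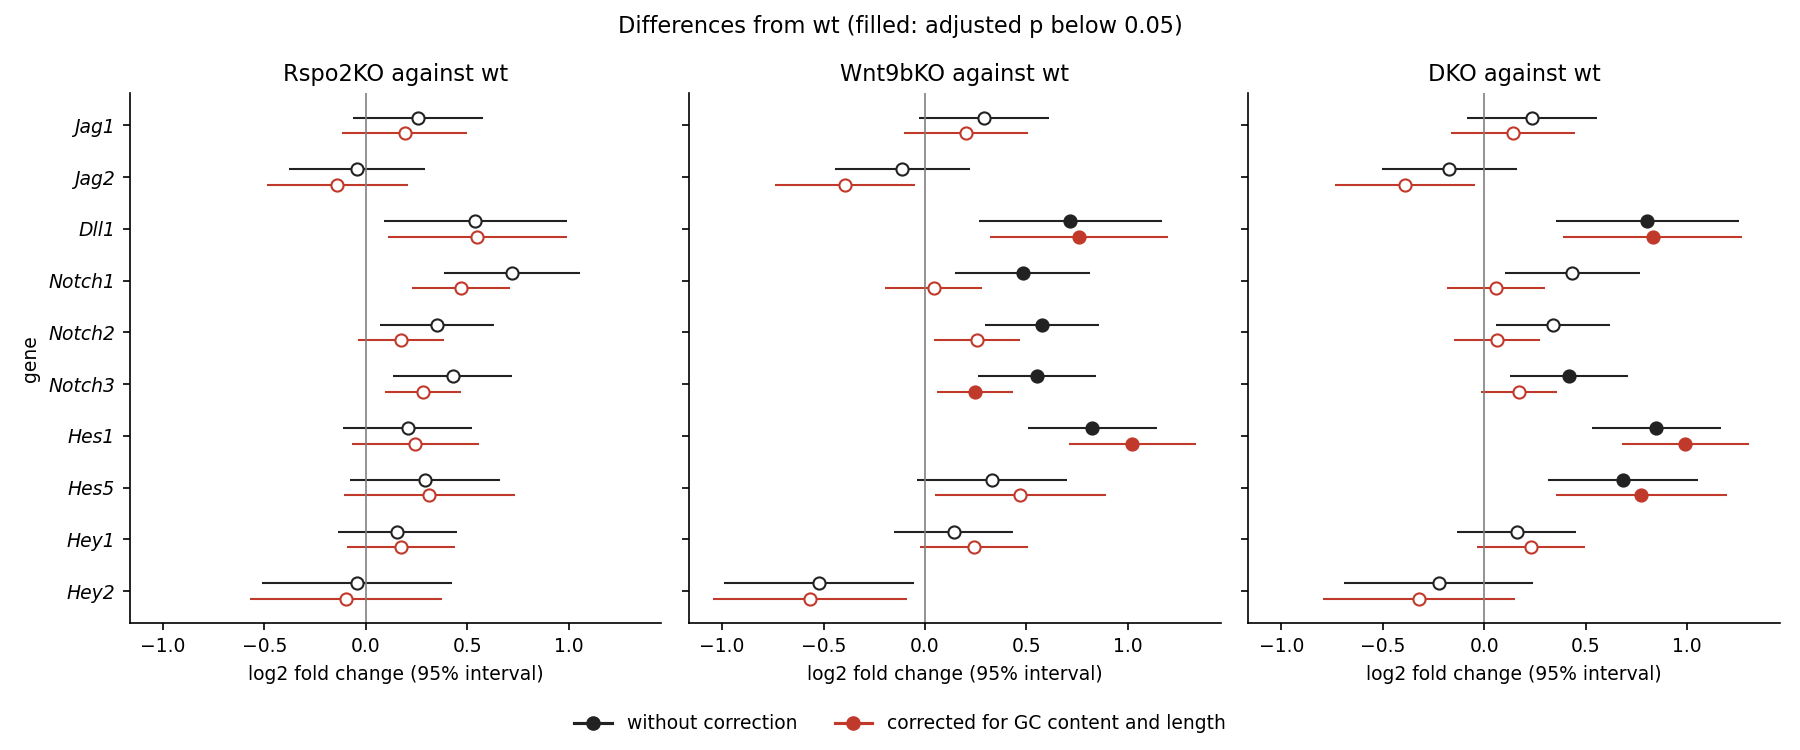
Log2 fold change (horizontal axes) of each gene (vertical axis) against wt under each mutant label, with its 95% confidence interval as a line, from edgeR without correction (black) and with correction for GC content and gene length (red), where filled points have an adjusted p below 0.05. With the correction *Notch1* moved from 0.48 to 0.04 under Wnt9bKO, while *Hes1* moved from 0.82 to 1.02.

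Of the targets, *Hes1* (ENSMUSG00000022528, chromosome 16, 30064384 to 30067796 on the plus strand), which encodes a repressor that maintains progenitor cells, was at 18.9 and 21.1 CPM in wt, and the libraries labelled Rspo2KO had 22.5, 26.2 and 20.9 CPM. It was at 34.3, 41.0 and 31.4 CPM in those labelled Wnt9bKO and at 36.4, 39.7 and 32.4 CPM in those labelled DKO. The 6 libraries labelled Wnt9bKO and DKO lay above all 5 others, and the wt and Rspo2KO libraries overlapped. *Hes1* rose 1.77-fold under Wnt9bKO (log2 fold change 0.82, standard error 0.15, adjusted p = 0.000925) and 1.80-fold under DKO (0.85, standard error 0.15, adjusted p = 0.00100). Under Rspo2KO its log2 fold change was 0.21 (adjusted p = 0.607). Both calls passed in all 23 alternatives, with adjusted p up to 0.0194 under Wnt9bKO and up to 0.0225 under DKO.

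*Hes5* (ENSMUSG00000048001, chromosome 4, 154960923 to 154962371 on the plus strand), a related repressor known mainly from neural progenitors, was at 16.6 and 12.7 CPM in wt, 18.1, 19.1 and 16.3 CPM in the libraries labelled Rspo2KO and 16.8, 22.4 and 15.7 CPM in those labelled Wnt9bKO. In the libraries labelled DKO it was at 24.5, 24.9 and 20.9 CPM. The DKO libraries lay above wt and Rspo2KO, while the Wnt9bKO libraries overlapped wt, and Wnt9bKO 2 exceeded DKO 3. *Hes5* rose by a log2 fold change of 0.69 under DKO (standard error 0.17, adjusted p = 0.00960), and its values of 0.33 under Wnt9bKO and 0.29 under Rspo2KO did not pass (adjusted p = 0.161 and 0.532) and ranged over the alternatives from 0.14 to 0.52 and from 0.10 to 0.50. The DKO call was lost without the library labelled wt 2 (0.49, adjusted p = 0.143, range over the alternatives 0.000698 to 0.143).

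*Hey1* (ENSMUSG00000040289, chromosome 3) and *Hey2* (ENSMUSG00000019789, chromosome 10) encode repressors known from vessel and heart development. *Hey1* was at 26.7 and 33.5 CPM in wt and ranged from 28.3 to 36.2 CPM in the mutant libraries, so that the groups overlapped, and its log2 fold changes of 0.16 under Rspo2KO, 0.14 under Wnt9bKO and 0.16 under DKO did not pass. *Hey2* was at 9.38 and 8.64 CPM in wt and at 7.67, 4.59 and 6.48 CPM in the libraries labelled Wnt9bKO, all below wt. Its log2 fold change of -0.52 there did not pass (standard error 0.22, adjusted p = 0.0817), except without the library labelled Wnt9bKO 1 (-0.70, adjusted p = 0.0270, range 0.0270 to 0.259). Under DKO and Rspo2KO *Hey2* overlapped wt, with log2 fold changes of -0.22 and -0.04 (adjusted p = 0.484 and 0.964).

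The 250 bases before RefSeq transcript starts were searched on both strands for TGGGAA, the core of the RBPJ motif. RefSeq promoters of GRCm38.p6 were held for 8 of the 10 genes in 9 windows, and those of *Hes1* and *Hey1* were not analysed here. These starts differ from the annotated ends of some genes, so that the windows of *Notch1* and *Jag2* and 1 of 2 of *Dll1* lie inside the gene, and those of *Jag1*, *Notch2* and *Hey2* reach into it by 124, 11 and 18 bases. The motif was found in *Hes5*, beginning 226 and 82 bases before the start, and in *Hey2*, beginning 207 bases before it, and in none of the windows of *Jag1*, *Jag2*, *Dll1*, *Notch1*, *Notch2* and *Notch3*. Of all 32851 windows of this length 21.6% held it. Of the other motifs searched on both strands, CACNAG, the N-box bound by HES proteins, was in the windows of *Notch1*, *Notch2* and *Notch3* (36.7% of all windows), and CTTTGAT, a TCF motif, was in none of the 9 (3.21% of all windows). The windows of *Hes5* (chr4:154960673-154960922, plus strand) and *Hey2* (chr10:30842784-30843033, minus strand) are shown because they are the ones with the RBPJ motif, which stands in capitals on either strand, and a match is a description of the letters only.
*Hes5*: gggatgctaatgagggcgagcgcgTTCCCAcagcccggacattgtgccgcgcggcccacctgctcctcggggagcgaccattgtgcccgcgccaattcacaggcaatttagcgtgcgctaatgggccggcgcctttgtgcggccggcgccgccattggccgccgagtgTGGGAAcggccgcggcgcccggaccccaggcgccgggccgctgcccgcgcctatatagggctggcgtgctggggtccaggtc
*Hey2*: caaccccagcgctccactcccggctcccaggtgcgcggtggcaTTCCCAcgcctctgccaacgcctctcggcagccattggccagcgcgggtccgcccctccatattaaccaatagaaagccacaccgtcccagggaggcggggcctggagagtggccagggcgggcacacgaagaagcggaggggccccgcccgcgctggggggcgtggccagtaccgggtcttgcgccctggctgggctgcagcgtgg

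In this pair of genes with the motif in the window, *Hes5* was called higher under DKO and *Hey2* had lower values under Wnt9bKO without passing.

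Markers of neural progenitors were summed for each library. The summed level of 8 such markers was 495.2 and 543.7 CPM in wt, and the libraries labelled Rspo2KO had 592.1, 618.5 and 583.2 CPM. It was 671.9, 817.1 and 638.3 CPM in those labelled Wnt9bKO and 790.0, 902.8 and 716.3 CPM in those labelled DKO. Within each mutant label the library with the highest sum also had the highest *Hes1*, and for *Dll1* this held under Wnt9bKO and DKO but not Rspo2KO. The most abundant marker was *Nes*, which encodes an intermediate filament of progenitors, with log2 fold changes of 0.63 under Wnt9bKO (adjusted p = 0.00342) and 0.82 under DKO (adjusted p = 0.000812). Without *Nes* the sum was 223.7 and 220.8 CPM in wt, 271.8, 279.5 and 271.1 CPM under Rspo2KO, 196.9, 321.7 and 231.9 CPM under Wnt9bKO and 294.4, 294.9 and 249.5 CPM under DKO, and these sums no longer divided the libraries as *Hes1* did. Of the 8 markers 5 were called higher and 1 lower (*Fabp7*) under Wnt9bKO, and 5 higher and 0 lower under DKO, beside 16.8% and 16.0% of all genes under Wnt9bKO and 14.3% and 13.1% under DKO. None was at or under 3 counts in every library. Their part in the levels of *Hes1*, *Hes5* and *Dll1* was not tested.

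**Figure D3:**
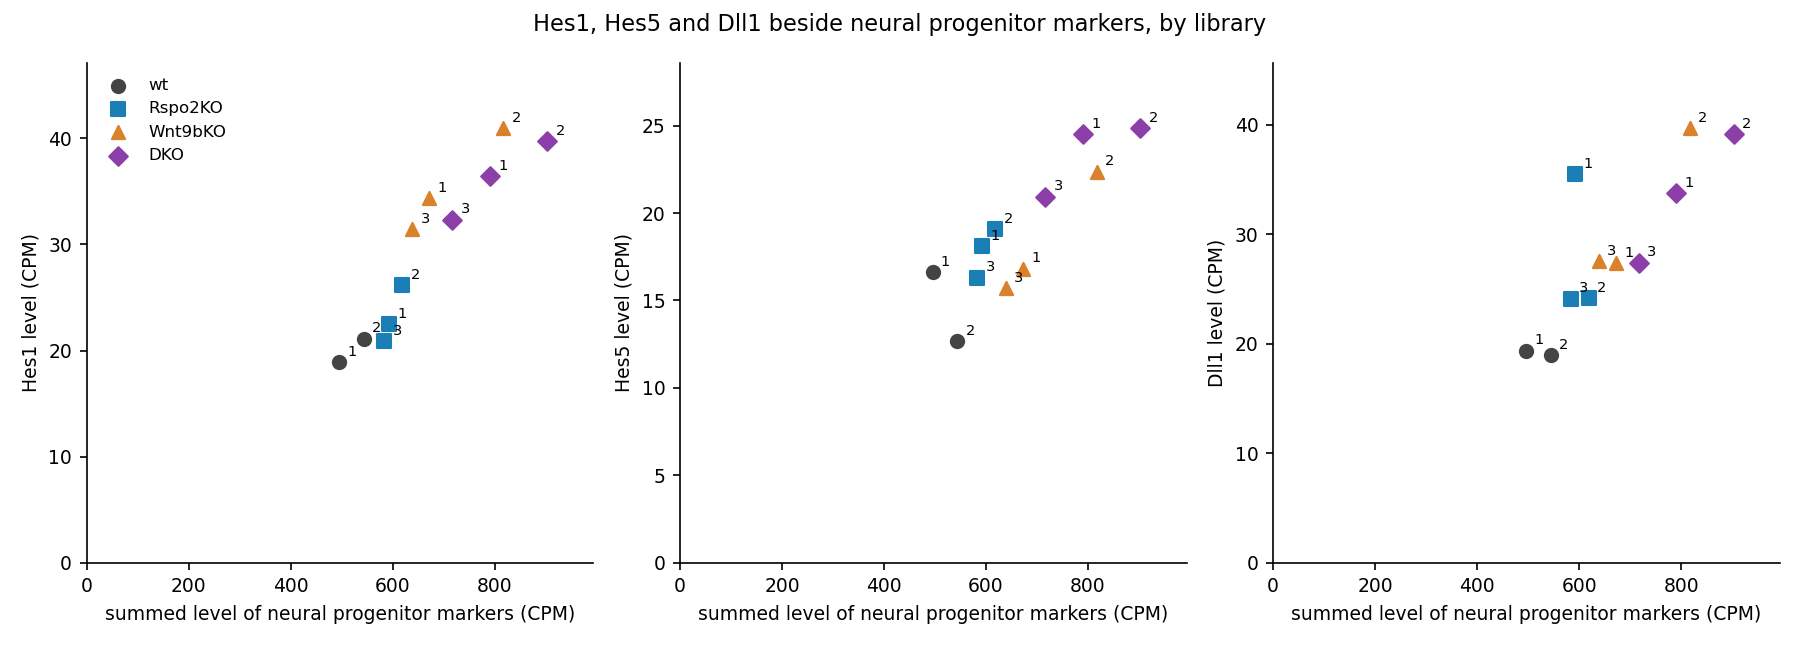
Level of *Hes1*, *Hes5* and *Dll1* (vertical axes, CPM) against the summed level of 8 neural progenitor markers (horizontal axes, CPM), where each point is a library, numbered by replicate. The libraries labelled Wnt9bKO and DKO had sums of 638.3 CPM or above and *Hes1* at 31.4 CPM or above, a division of the sums that was not seen without *Nes*, and Rspo2KO 1 stood high for *Dll1* at 35.5 CPM with a sum of 592.1 CPM.

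Markers of other cell types were summed in the same way. Of all genes 16.8% were called higher and 16.0% lower under Wnt9bKO, and 14.3% and 13.1% under DKO. The 10 neuron markers (most abundant *Tubb3*) had mean sums of 613.6 CPM in wt, 775.9 under Rspo2KO, 496.3 under Wnt9bKO and 731.6 under DKO, with 2 called lower under Wnt9bKO and 4 called higher under DKO. The 10 endothelial markers (most abundant *Kdr*), had mean sums of 255.6, 277.8, 258.3 and 253.4 CPM in the same order, with 2 called higher and 4 lower under Wnt9bKO and 2 higher and 3 lower under DKO. The 6 mural and smooth muscle markers (most abundant *Pdgfrb*) were at 128.6, 130.1, 117.8 and 114.3 CPM, with 2 called lower under Wnt9bKO and 1 under DKO. The 6 erythroid markers (most abundant *Hbb-y*) were at 4417 and 5011 CPM in wt and Rspo2KO and at 2165 and 2203 CPM in Wnt9bKO and DKO, with 3 and 5 called lower. The defining facial mesenchyme markers, of which *Prrx1* was the most abundant, were present in every group, with mean sums of 1151, 877.1, 1089 and 978.7 CPM. Their sums in the libraries labelled Wnt9bKO 1, 2 and 3 lay far apart, at 1401, 785.2 and 1081 CPM. Of these 10 markers 1 was called higher under Wnt9bKO and 1 lower under DKO. Also present in every group were 8 surface epithelium markers (most abundant *Krt8*) at 269.0, 255.1, 264.8 and 264.3 CPM, with 1 called lower under each of Wnt9bKO and DKO. The 6 cardiac markers (most abundant *Actc1*) were at 60.7 CPM in wt 1 and at 10.4 CPM or below in every other library, and the 3 tested were called lower under Wnt9bKO and DKO. None of these markers was called under Rspo2KO, and none was at or under 3 counts in every library. The part of these cell types in the Notch values was not tested.

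Small nuclear RNAs also separated the libraries, at 351.9 to 419.6 CPM in those labelled wt and Rspo2KO and at 70.1 to 82.7 CPM in those labelled Wnt9bKO and DKO. Effects of this difference and of the *Wnt9b* genotype cannot be told apart, and the *Hes1* levels divide the libraries in the same way.

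The double mutant was then set against each single mutant. Between DKO and Wnt9bKO 0 of 10 genes were called in edgeR, against 0.121% of all genes, with 1 at an unadjusted p below 0.05 (5.63% of all genes) and 0 by DESeq2 (0.508%). That gene was *Hes5*, with a log2 fold change of 0.36 (95% interval 0.04 to 0.68, adjusted p = 0.793). Over the alternatives it ranged from 0.26 to 0.60 and was 0.60 without the libraries labelled Wnt9bKO 2 and DKO 3, and no alternative called it (adjusted p of 0.251 or more). *Hes1* had a difference of 0.02 (95% interval -0.24 to 0.29). Between DKO and Rspo2KO 1 of 10 was called, against 18.2% of all genes, which was *Hes1* (0.64, standard error 0.13, adjusted p = 0.00346). *Hes5* differed there by 0.39 without passing (adjusted p = 0.0839), and passed in 4 of 23 alternatives, among them those without the library labelled Wnt9bKO 2 (adjusted p = 0.0376) and without Wnt9bKO 2 and DKO 3 (0.0350), in a range of 0.0256 to 0.258. Between Wnt9bKO and Rspo2KO 1 of 10 was called, against 26.0% of all genes, again *Hes1* (0.62, standard error 0.13, adjusted p = 0.00320). The *Hes1* differences from Rspo2KO passed in all 23 alternatives. With correction for GC content and length *Notch1* was called lower than in Rspo2KO in both DKO (-0.41, adjusted p = 0.00981) and Wnt9bKO (-0.43, adjusted p = 0.00595). Without the library labelled Rspo2KO 1 the count between Wnt9bKO and Rspo2KO was 4, with *Hey2*, *Notch2* and *Notch3* added, and without Wnt9bKO 1 it was 2. For these refits the shares of all genes called are not given here, so these counts are not results about the 10 genes alone.

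The departure of DKO from the sum of the single-mutant log2 changes was tested as an interaction, in which 0 of 10 genes were called by edgeR, against 0.0635% of all genes, and 0 by DESeq2 (0.173%), with 3 at an unadjusted p below 0.05 (9.45%). These were the receptors, with interactions of -0.77 for *Notch1*, -0.59 for *Notch2* and -0.56 for *Notch3* on the log2 scale (adjusted p = 0.427 for each). None passed the adjusted threshold, and with correction for GC content and length the values were -0.45, -0.37 and -0.36. They also shrank without the library labelled Rspo2KO 1, to -0.55, -0.44 and -0.40, and over all alternatives they ranged from -0.88 to -0.43 for *Notch1*, from -0.71 to -0.35 for *Notch2* and from -0.65 to -0.35 for *Notch3*. *Notch1* passed in 1 of 22 alternatives, with low-count genes kept (adjusted p = 0.00541, range up to 0.921). For *Hes1* the interaction was -0.18 (95% interval -0.60 to 0.23).

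Without the libraries labelled Wnt9bKO 2 and DKO 3 the counts of called genes were 5 under Wnt9bKO, 0 under Rspo2KO and 3 under DKO against wt, 0 between DKO and Wnt9bKO, 2 between DKO and Rspo2KO, 1 between Wnt9bKO and Rspo2KO and 0 for the interaction. In that refit 29.7%, 0.0467% and 25.6% of all genes were called against wt in the same order, and 0.117%, 16.7%, 21.5% and 0.0700% in the others.

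Beyond the 10 genes, 54 other genes of the Notch pathway were examined, of which 53 were tested. Under Wnt9bKO 12 were called higher and 5 lower, which is 32.1% of those tested beside 32.8% of all genes, and under DKO 12 higher and 4 lower, 30.2% beside 27.5%. With correction for GC content and length the balance was 9 higher and 6 lower under Wnt9bKO, 28.3% beside 33.8% of all genes, and 8 higher and 7 lower under DKO, 28.3% beside 29.4%. Over all genes the balance also moved, under Wnt9bKO from 2911 higher and 2763 lower to 2401 and 3360. Under DKO it moved from 2484 higher and 2276 lower to 1940 and 3071. Under Rspo2KO 0 were called in edgeR, with 7 at an unadjusted p below 0.05 (11.9% of all genes), and 1 by DESeq2 (1.05%). Their median log2 fold changes were 0.07 under Wnt9bKO, 0.08 under Rspo2KO and 0.11 under DKO, beside 0.01, 0.00 and 0.02 over all genes, and with the correction -0.04, 0.01 and 0.00 beside -0.05, -0.05 and -0.06. The counts fell under both labels when wt 1 or wt 2 was left out, which leaves 1 library in that group. Without DKO 1 the DKO count was 10. The shares of all genes called in these refits are not given here, so these counts are not results about this list alone.

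Without correction, the called genes among 4 other ligands, 5 glycosyltransferases and 4 genes of ligand ubiquitin ligases and endocytosis were all higher than in wt. These were *Dlk1*, *Lfng*, *Mib1* and *Neurl1a* under Wnt9bKO, and *Lfng*, *Mib1* and *Neurl1a* under DKO. Of all genes 32.8% and 27.5% were called, with 16.8% and 14.3% higher. *Lfng*, which encodes a glycosyltransferase that alters how receptors respond to ligands, was at 8.93 and 10.6 CPM in wt, 15.4, 14.9 and 12.6 CPM under Rspo2KO, 19.9, 26.3 and 18.7 CPM under Wnt9bKO and 21.7, 26.2 and 22.8 CPM under DKO. Without correction it was the only glycosyltransferase called of 5, and with correction for GC content and length another was called lower under DKO. *Lfng* had log2 fold changes of 1.14 under Wnt9bKO (standard error 0.18, adjusted p = 0.000344) and 1.26 under DKO (standard error 0.18, adjusted p = 0.000192). *Mib1* and *Neurl1a*, ubiquitin ligases that promote ligand endocytosis, rose by 0.51 and 0.83 under Wnt9bKO and by 0.44 and 0.90 under DKO, and with that correction neither was called. The corrected values were 0.28 and 0.21 for *Mib1* (adjusted p = 0.0852 and 0.215), and 0.55 and 0.69 for *Neurl1a* (adjusted p = 0.108 and 0.0542). The atypical ligand *Dlk1* rose under Wnt9bKO by 0.53 (adjusted p = 0.0150) and had a value of 0.21 under DKO (adjusted p = 0.337). With correction for GC content and length another of the 4 ligands was called higher under DKO (0.51, adjusted p = 0.0485).

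Among the receptor proteases, *Psenen*, a subunit of the gamma-secretase that frees the intracellular part of Notch, was at 12.1 and 11.2 CPM in wt, 5.17, 3.94 and 4.20 CPM under Wnt9bKO and 4.35, 4.05 and 6.19 CPM under DKO, with no overlap. It fell under Wnt9bKO (log2 fold change -1.38, adjusted p = 0.000284) and under DKO (-1.25, adjusted p = 0.000687), while the subunit *Ncstn* rose under both (0.41 and 0.35). Of the 8 genes of receptor turnover, *Dtx2* fell under Wnt9bKO (-0.59) and DKO (-0.73), and *Dtx4* rose under DKO (0.62, adjusted p = 0.0224). With correction for GC content and length 0 of the 8 rose and 3 fell under Wnt9bKO, and 1 rose and 2 fell under DKO. That is 37.5% of the 8 under either label, beside 33.8% and 29.4% of all genes. Of all 17020 genes with that correction 2401 rose and 3360 fell under Wnt9bKO, and 1940 and 3071 under DKO.

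Of 15 genes of the nuclear complex and its corepressors, 5 rose and 2 fell under Wnt9bKO, and 5 rose and 2 fell under DKO, while with correction for GC content and length 4 rose and 1 fell under Wnt9bKO, and 2 rose and 2 fell under DKO. Without the correction 16.8% of all genes rose and 16.0% fell under Wnt9bKO, and 14.3% and 13.1% under DKO. With it 2401 of 17020 genes rose and 3360 fell under Wnt9bKO, and 1940 and 3071 under DKO. The corrected calls are 33.3% and 26.7% of the 15 genes, beside 33.8% and 29.4% of all genes. The deacetylase gene *Hdac1* was at 133.5 and 113.3 CPM in wt, 35.3, 40.4 and 43.5 CPM under Wnt9bKO and 36.5, 35.2 and 46.3 CPM under DKO, log2 fold changes of -1.64 (adjusted p = 3.5e-06) and -1.65 (adjusted p = 3.75e-06). The corepressor gene *Cir1* rose by 1.26 and 1.56, the coactivator gene *Maml1* by 0.68 and 0.64, and *Spen*, which encodes a corepressor of RBPJ, by 1.06 and 0.72, and *Spen* under DKO was not called with that correction (0.35, adjusted p = 0.230). Of the further targets and related factors, *Heyl* rose under DKO (0.77, adjusted p = 0.0149), *Hes6* fell under Wnt9bKO (-0.52, adjusted p = 0.0102), and *Bhlhe40* rose under Wnt9bKO (2.82) and DKO (2.37) from a low level of 3 and 7 counts in the wt libraries.

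**Figure D4:**
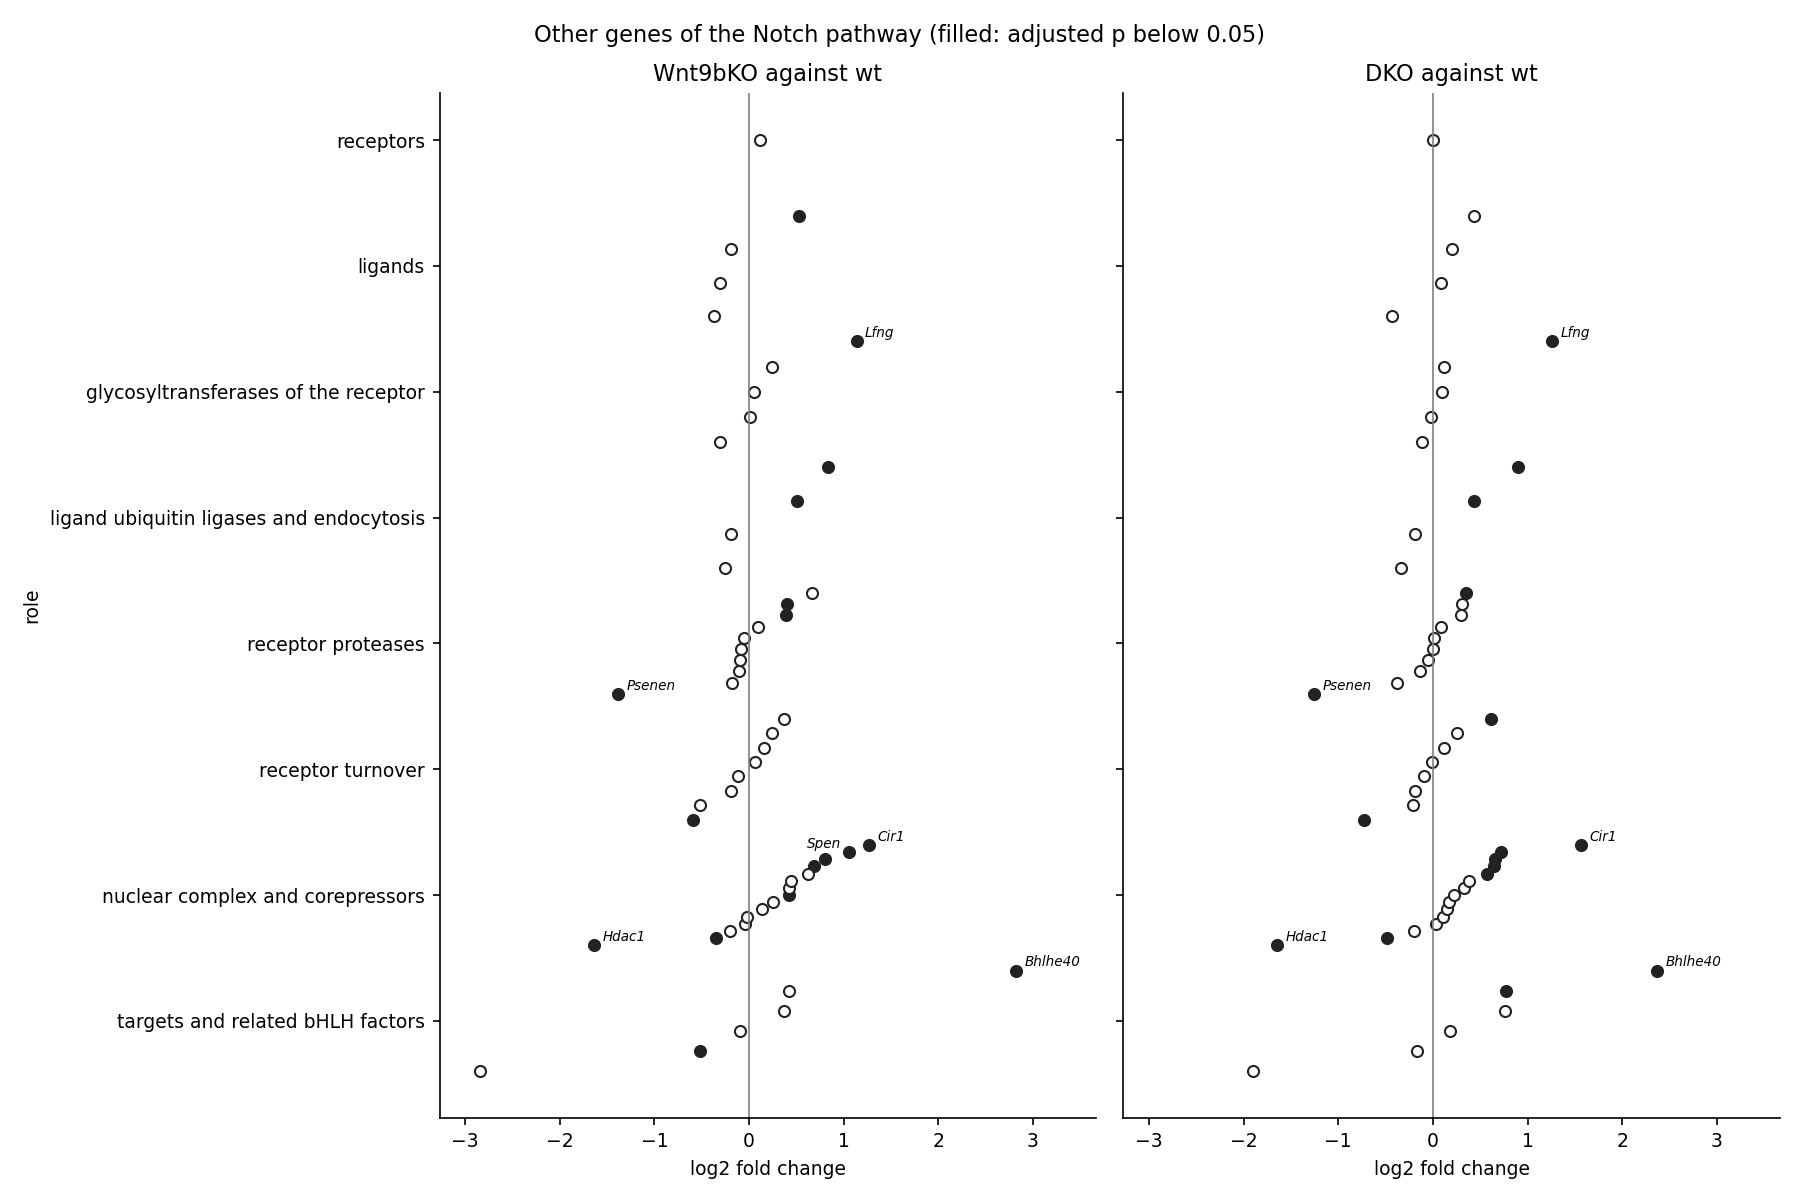
Log2 fold change (horizontal axes) of the 53 other Notch pathway genes tested, by role (vertical axis), under Wnt9bKO and DKO against wt, where filled points have an adjusted p below 0.05 and those of them beyond 1 in either direction are named. *Hdac1* and *Psenen* lie far to the left and *Bhlhe40*, *Cir1* and *Lfng* to the right under both labels.

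Profiles over the 11 libraries were compared by the root mean square difference of centred log2 CPM among 13324 protein-coding genes. The genes most like *Hes1* were *Nes* (0.10), *Ankrd45* (0.11) and *Dusp3* (0.11), where the SD of *Hes1* itself was 0.40. *Nes* rose from a mean of 297.2 CPM in wt to 459.0 CPM under Wnt9bKO and 523.4 CPM under DKO. Those most like *Notch2* were *Ash1l* (0.06), *Fhod1* (0.07) and *Atg2b* (0.07), and those most like *Notch3* were *Zfp628*, *Hdac4* and *Syvn1* (0.06, 0.06 and 0.07), with an SD of 0.24 for either receptor.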

How the data were processed

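By the study's methods, single-end 50 base reads were trimmed with Cutadapt, mapped to GRCm38 with STAR and counted per gene with HTSeq-Count, and the authors deposited whole-number counts without normalization. Tool versions, the annotation release and strand handling are not given in the sources used here. Names, positions, exon lengths and GC content came from the GENCODE annotation of GRCm38, which held 36723 of the 38561 genes. Counts were analysed in R 4.3.3 with edgeR 4.0.16 (filterByExpr on genotype, TMM, quasi-likelihood fits of all 11 libraries with genotype means, two-sided tests, Benjamini-Hochberg adjustment over 17317 genes). Alternatives used DESeq2 1.42.0, RLE and upper-quartile factors, other filters, only the groups compared, blocking by replicate, an offset by loess for GC content and length (span 0.3), autosomal protein-coding genes, other call rules and libraries left out. Python 3.11.15 with matplotlib 3.10.9, scipy 1.17.1, pandas 2.3.3 and numpy 2.4.6 made tables and figures. The members and lists were chosen with earlier results of these data known. Genes named beyond the members were, per role, up to 4 called against wt with the smallest adjusted p, the 3 closest profiles of the 3 members with the smallest adjusted p, the mutated genes and the most abundant gene of each marker list. *Fabp7* was named after its values were seen.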

Additional observations from a re-analysis of the deposited data

How the results depend on the processing

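Over 23 alternatives, 37 differences of single genes were recomputed 848 times, of which 792 kept direction and side of the threshold, 25 no longer passed, 25 newly passed and 6 changed sign. *Hes1* kept every call. The sign changes were in values that did not pass, namely without wt 1 *Jag2* (0.014 under Wnt9bKO, 0.097 under Rspo2KO), *Hey1* (-0.013 under Wnt9bKO) and *Hey2* (0.020 under Rspo2KO), and *Hey2* under Rspo2KO without Rspo2KO 1 (0.072) and without Rspo2KO 1, Wnt9bKO 2 and DKO 3 (0.067). With single libraries left out the other ends of these ranges were -0.252 and -0.174 for *Jag2*, 0.317 for *Hey1* and -0.172 for *Hey2*. The cause was not tested. The last alternative was chosen after seeing the data, the Notch levels of Rspo2KO 1 included. It gave 3 called genes between DKO and Rspo2KO and 3 between Wnt9bKO and Rspo2KO. The count under Wnt9bKO was 3 with the GC content and length offset, 2 with that offset and the replicate block, and 2 at a change over 1.5-fold with either adjusted or unadjusted p. The count under DKO was 5 with DESeq2, upper-quartile factors, no filter, the filter at 10 counts or autosomal genes, 6 with only the groups compared or without Rspo2KO 1, Wnt9bKO 2 and DKO 3, and 3 with the offset, with or without the block, without Wnt9bKO 2 and DKO 3, or at over 1.5-fold with either p. The count under Rspo2KO was 1 with DESeq2, 2 without the filter and 1 at an unadjusted p with over 1.5-fold. Between DKO and Rspo2KO it was 2 with only the groups compared, with the offset, with the offset and block, and without Wnt9bKO 2 and DKO 3. Between Wnt9bKO and Rspo2KO it was 2 with the offset, with or without the block. For the interaction it was 1 without the filter and 2 at an unadjusted p with over 1.5-fold. Leaving out single libraries gave 1 to 6 called genes under Wnt9bKO, 1 to 6 under DKO, 1 to 2 between DKO and Rspo2KO and 1 to 4 between Wnt9bKO and Rspo2KO, and 0 in the other comparisons. Where a wt library was left out the remaining one was assumed to vary like the other groups. With DESeq2 27.1% of all genes were called under DKO and 1.05% under Rspo2KO. The share of all genes called is not given for refits with other filters, other factors, autosomal genes or only the groups compared. It is also not given for the replicate block, the offset between mutant groups or the rule of over 1.5-fold. The same holds for refits with a single library or with Rspo2KO 1, Wnt9bKO 2 and DKO 3 left out. Counts from all these settings are therefore not results about the 10 genes alone.

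Same-numbered libraries did not meet the rule for pairing, a correlation of deviations over 0.1 in every pair, since 3 of 15 pairs did (median 0.066, and -0.024 in the 30 other pairs). Among the mutant groups all 9 same-numbered pairs were positive (0.041 to 0.236), a hint from the data and not the design. Of the 18 other pairs 15 were negative. Deviations from a group mean cancel within the group, so these negative values follow in part from the positive ones. The replicate block without the offset left the counts at 5, 0 and 4 under Wnt9bKO, Rspo2KO and DKO, and at 0, 1, 1 and 0 between DKO and Wnt9bKO, DKO and Rspo2KO, Wnt9bKO and Rspo2KO, and for the interaction. The wt group of 2 libraries, the smaller of 11136166 counts, limits every comparison with wt.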
